A study of Mus musculus with 8 samples.

Results

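Proteasome subunit genes were examined in brain RNA from mice given PCPA or isoliensinine. They were chosen by name: of 21959 genes in the deposited table, 44 carry a symbol of Psma, Psmb, Psmc, Psmd or Psme followed by a number. Psmb8 and Psmb9, the inducible catalytic subunits, were left out, and 0 rows with a pseudogene name met the rule. Of the 44 genes, 17 are core genes (8 Psma, 9 Psmb) and 27 are regulatory genes (6 Psmc ATPases, 14 Psmd, 5 Psme activators and 2 genes only named after a subunit, Psmc3ip and Psme3ip1).

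The proteasome is the protease that degrades proteins tagged with ubiquitin in the cytosol and nucleus. Its barrel-shaped core is built of stacked rings of alpha and beta subunits, with the proteolytic sites on the inner face of the beta rings. A regulatory particle binds the end of the barrel, recognises ubiquitin, removes it and unfolds the substrate with a ring of ATPases. Neurons rely on it for the turnover of synaptic and regulatory proteins, and its subunit genes are known to be controlled together by the transcription factor Nfe2l1.

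The 8 libraries of polyadenylated RNA came from wild-type mice and form 2 groups of 4. The Model group is labelled as treated with PCPA (para-chlorophenylalanine, which blocks serotonin synthesis). The IsoL group is labelled as treated with isoliensinine, an alkaloid of the lotus seed embryo that the study examined for effects on sleep. The tissue label is brain, whereas the design text speaks of female ICR mice and a dissected hypothalamus after 7 days of dosing. Isoliensinine was given at 12.5, 25 or 50 mg/kg in that text; the dose behind the sequenced animals, and PCPA treatment in the IsoL group, are not stated in the labels. Untreated and alprazolam animals were not analysed here. No label ties each library to a mouse of its own, so the p-values refer to the spread among libraries, whose source may be technical.

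Libraries summed to 14262836 to 21620466 gene counts, of which mitochondrially encoded genes took 4.69 to 5.64%. A count of 3 corresponds to 0.138 to 0.210 CPM (counts scaled for library size after TMM adjustment); this floor allows for counting error alone. Neuronal markers summed to 3661 to 4222 CPM in Model and 3658 to 3944 CPM in IsoL. Of these 5 genes, 4 had a log2 fold change below 0 and 1 above, and 0 passed the test. Microglial markers were above 0 for 4 of 4, with 0 past the test. Their sums were 112 to 123 CPM in Model and 115 to 139 CPM in IsoL. The summed level of 11 hypothalamic markers was 195 to 227 CPM in Model and 76.6 to 158 CPM in IsoL, with 9 of 11 below 0 in log2 fold change and 1 past the test (Pmch). Astrocyte markers were above 0 for 4 of 4 and their sums did not overlap (983 to 1096 CPM in Model, 1099 to 1214 in IsoL), and oligodendrocyte markers were above 0 for 4 of 4 (12751 to 13245 CPM in Model, 12975 to 14364 in IsoL), with 0 past the test in either list. Cortex and hippocampus markers summed to 66.9 to 91.2 CPM in Model and to 190.2, 169, 84.4 and 66.0 CPM in IsoL 1 to 4. Choroid plexus markers, at 8.11 to 17.6 CPM in Model, summed to 673, 577, 59.3 and 10.2 CPM in IsoL 1 to 4. Y-linked Ddx3y was read in all 8 libraries, although the design text gives the mice as female. The part of these differences in tissue and cell markers in the subunit values was not tested, and in bulk RNA fewer cells of a type and less RNA per cell cannot be told apart.

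No proteasome subunit gene differed between IsoL and Model at an adjusted p under 0.05. In edgeR's quasi-likelihood test across 14536 genes with the Benjamini-Hochberg adjustment, 40 genes were called, or 0.275% of those tested, and 0 of the 42 subunit genes that could be tested were among them. The smallest adjusted p of any subunit gene was 0.356, for Psmd7. Psmd7 was also the 1 member with an unadjusted p under 0.05, against 13.2% of all tested genes. DESeq2 and limma voom called 0 of the 42 as well, although each called more genes over the whole table than edgeR, as given in the last section. They had 0 and 2 members at an unadjusted p under 0.05. The shares of all genes at that level under these methods were not set beside those counts. Members whose 4 IsoL libraries all lay on one side of the 4 Model libraries numbered 0, against 8.48% of all tested genes. The count of 40 over all genes was 146 without Model 2 and 6 to 21 without any other single library, and 0 members were called in each of those fits. Psma8 and Psmb11 were too low to be tested.

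The 95% intervals were narrow for most members. For 33 of the 42, or 78.6%, the 95% interval of the fold change lay within 1.2-fold in either direction; 44.1% of all tested genes had such an interval. These intervals are per gene and are not adjusted for the number of genes. Like the p-values, they rest on the spread among libraries, whose source may be technical. The 9 members whose interval reached past 1.2-fold were Psmb2, Psmb5, Psmb10, Psmc3ip, Psmd1, Psmd10, Psme1, Psme2 and Psme2b. Of the 42, 27 had a log2 fold change below 0 and 15 above, beside 50.5% of all tested genes below 0. Their median log2 fold change was -0.02, and that of all tested genes was -0.0015. Libraries of a group varied little: the median coefficient of variation within groups was 6.01% for members and 8.59% for all tested genes. Members also had higher levels, with a median FPKM (reads scaled to gene length and library size) of 21.3 for the 44 and 5.69 for all tested genes. The part of level in the shares of intervals and in this variation was not tested.

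**Figure D1:**
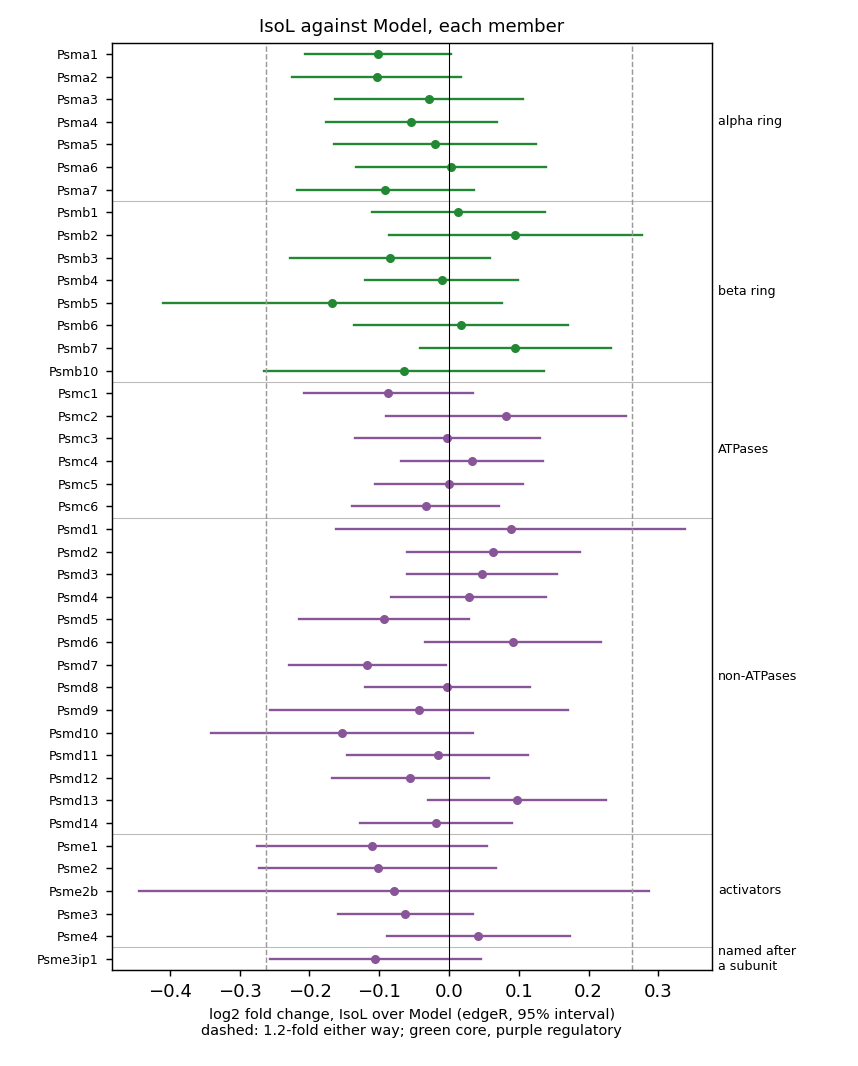
The log2 fold change of IsoL over Model (x axis) is shown for each tested member except Psmc3ip (rows, by class), with its 95% interval from edgeR; dashed lines mark 1.2-fold in either direction, core genes are green and regulatory genes purple. All but 1 of the intervals shown reach across 0 (Psmd7 ends at -0.0045), and the widest belong to Psme2b, Psmd1, Psmb5 and Psmd9.

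The alpha ring forms the outer gate of the barrel. Of its 7 tested genes, 6 had a log2 fold change below 0 and 1 above, with a median of -0.05 and a range of -0.10 (Psma2) to 0.0026 (Psma6). All 7 intervals lay within 1.2-fold. Psma1 (ENSMUSG00000030751, chromosome 7, 113863841 to 113875353, minus strand in the coordinates of the deposited table, for which no label names a build) was at 67.6, 68.7, 64.4 and 68.6 CPM in Model 1 to 4 and at 61.1, 63.2, 65.0 and 61.7 CPM in IsoL 1 to 4. Its IsoL values lay below the Model values except for IsoL 3, which exceeded Model 3, and the estimate was -0.10 in log2 units with an SE of 0.049 (edgeR adjusted p = 0.392). Psma2 was at 94.6, 90.0, 84.8 and 95.7 CPM in Model and 79.2, 82.96, 87.5 and 90.0 CPM in IsoL. Here the groups overlapped more, since 2 IsoL libraries exceeded the lowest Model library (log2 -0.10, SE 0.056, edgeR adjusted p = 0.457).

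Psma7, an alpha subunit also known to bind regulators such as HIF1A, was at 63.9, 66.2, 65.1 and 65.4 CPM in Model and 55.3, 66.3, 62.9 and 60.2 CPM in IsoL. IsoL 1, 3 and 4 lay under the tight Model group, and IsoL 2 was the highest of the 8 libraries (edgeR adjusted p = 0.543). Psma6, the alpha gene with the highest level per length in the table, had means of 77.7 ± 5.46 CPM (SD, n = 4) in Model and 77.8 ± 5.19 CPM in IsoL. Psma4 had the tightest IsoL group of the ring, 65.3, 64.5, 64.2 and 64.5 CPM, inside the Model range of 62.6 to 74.0 CPM. Psma8, which replaces Psma7's product in the proteasome of male germ cells, was read 4, 6, 7 and 5 times in Model 1 to 4 and 10, 12, 7 and 18 times in IsoL 1 to 4. Those counts are 0.280 to 0.825 CPM, above the floor of 3 counts in every library, where the other alpha genes lay between 39.0 and 95.7 CPM.

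The beta ring carries the catalytic sites. Its 8 tested genes divided evenly, 4 below and 4 above 0, with a median log2 fold change of 0.0015. Psmb5 (ENSMUSG00000022193, chromosome 14, 54851576 to 54855479, minus strand), the subunit with the chymotrypsin-like site that proteasome inhibitors such as bortezomib bind, had the most negative log2 fold change of all members. It was at 8.74, 10.1, 9.18 and 8.35 CPM in Model and 8.10, 8.41, 8.67 and 7.33 CPM in IsoL. The groups overlapped, since only IsoL 4 and IsoL 1 lay under every Model library, and the estimate was -0.17 in log2 units with an SE of 0.11 (edgeR adjusted p = 0.562). The 95% interval of its fold change, 0.753 to 1.05, reaches past 1.2-fold on the lower side.

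The other catalytic subunits had log2 fold changes above 0, and neither passed. Psmb6, with the caspase-like site, was at 63.9, 61.2, 52.8 and 54.5 CPM in Model and 55.2, 64.2, 59.9 and 56.0 CPM in IsoL; the Model libraries spanned nearly the whole range of the IsoL libraries (log2 0.02, edgeR adjusted p = 0.942). Psmb7, with the trypsin-like site, was at 47.8, 44.1, 41.7 and 47.8 CPM in Model and 46.4, 51.8, 48.5 and 47.2 CPM in IsoL. Its highest value was IsoL 2 and its lowest Model 3, with the other 6 libraries between 44.1 and 48.5 CPM (log2 0.10, SE 0.064, edgeR adjusted p = 0.557). Psmb2, the non-catalytic subunit with the highest log2 fold change of the core, was at 38.9, 32.1, 39.9 and 41.3 CPM in Model and 37.9, 41.3, 45.2 and 38.2 CPM in IsoL. Model 2 alone was low and IsoL 3 alone was high. Psmb4, a non-catalytic subunit, had the highest level per length of the ring and a log2 fold change of -0.01 (SE 0.051).

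Among the beta genes of special proteasomes, Psmb10 is the inducible counterpart of Psmb7 in immune cells. It was at 16.9, 19.5, 18.5 and 18.3 CPM in Model and 16.5, 15.3, 19.04 and 19.2 CPM in IsoL, where IsoL 2 was the lowest of the 8 libraries (log2 -0.06, edgeR adjusted p = 0.804; -0.0035 without IsoL 2 and -0.11 without IsoL 4). The other inducible subunits, outside the chosen set, were far lower. Psmb8 had 3, 18, 10 and 16 counts in Model and 7, 6, 24 and 27 in IsoL (edgeR adjusted p = 0.916). Psmb9 had 11, 12, 17 and 11 counts in Model and 15, 8, 28 and 49 in IsoL (edgeR adjusted p = 0.536). Psmb8 varied widely inside both groups, Psmb9 mainly inside IsoL. Psmb11, the subunit of thymic epithelium, had 0 to 2 counts per library, under the floor of 3 counts.

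**Figure D2:**
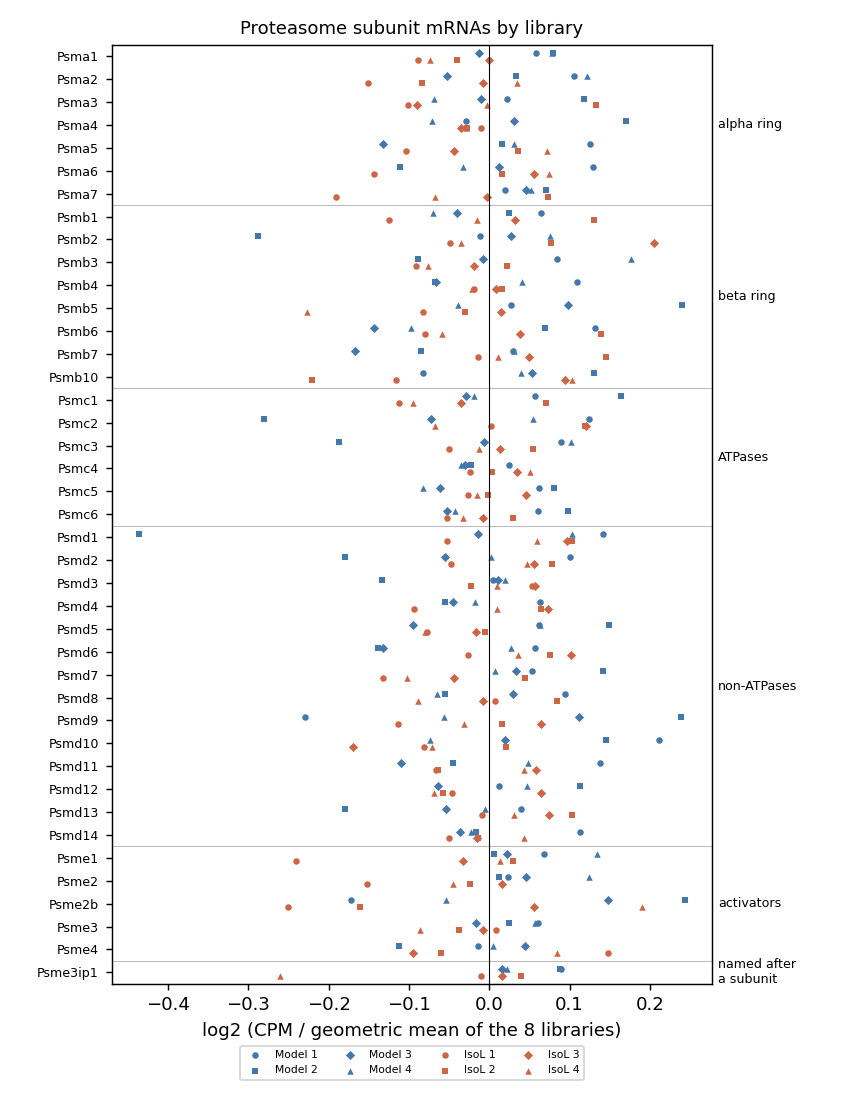
Each row is a tested member except Psmc3ip, and each point is 1 library, placed at the log2 ratio of its CPM to the geometric mean of the 8 libraries (x axis); blue marks Model and orange IsoL, with a shape for each replicate number. Model 2 stands at the left for Psmd1 and Psmb2 and at the right for Psmb5, and IsoL 1 is the lowest IsoL library for 11 of the 14 core genes of the finished particle.

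The 6 ATPases form the unfolding ring at the base of the regulatory particle. They gave 4 log2 fold changes below 0 and 2 above, from -0.09 (Psmc1) to 0.08 (Psmc2), and all 6 intervals lay within 1.2-fold. Psmc5, the ATPase with the highest level per length in the table, was at 169, 172, 156 and 153 CPM in Model and 159, 162, 168 and 161 CPM in IsoL. All IsoL values fell inside the Model range, with group means of 162 ± 9.39 and 162 ± 3.58 CPM (SD, n = 4); the 95% interval of the fold change was 0.929 to 1.08. Psmc1 was at 181, 195, 170.2 and 171 CPM in Model and 161, 182, 169 and 163 CPM in IsoL, and IsoL 2 exceeded 3 of the 4 Model libraries (edgeR adjusted p = 0.544). Psmc2 was at 99.9, 75.4, 87.2 and 95.1 CPM in Model and 91.8, 99.5, 99.6 and 87.5 CPM in IsoL, with Model 2 low (edgeR adjusted p = 0.702). Psmc4 was the steadiest member, with a coefficient of variation within groups of 2.1%, and Psmc3 and Psmc6 had log2 fold changes of -0.0022 and -0.03.

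The 14 Psmd genes encode the scaffold, lid, ubiquitin receptor and deubiquitinase of the regulatory particle, together with assembly chaperones. They gave 8 log2 fold changes below 0 and 6 above, with a median of -0.0094. Psmd7 (ENSMUSG00000039067, chromosome 8, 108307013 to 108315096, minus strand), the lid subunit that pairs with the deubiquitinase Psmd14, was at 104, 111, 103 and 101 CPM in Model and 91.8, 104, 97.5 and 93.7 CPM in IsoL. IsoL 2 lay inside the Model range and the other 3 IsoL libraries below it, an estimate of -0.12 in log2 units with an SE of 0.052 (95% interval -0.23 to -0.0045, edgeR unadjusted p = 0.0426 and adjusted p = 0.356). Psmd14, which cuts ubiquitin from the substrate, was at 80.1, 73.2, 72.1 and 72.9 CPM in Model and 71.5, 73.3, 73.2 and 76.2 CPM in IsoL. Apart from Model 1, all its libraries lay between 71.5 and 76.2 CPM (edgeR adjusted p = 0.906). Psmd7 and Psmd14, whose products work as a pair, thus had log2 fold changes of -0.12 and -0.02, with standard errors of 0.052 and 0.051.

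Psmd4, a ubiquitin receptor, was at 98.2, 90.5, 91.1 and 92.8 CPM in Model and 88.1, 98.3, 98.9 and 94.7 CPM in IsoL; the lowest library was IsoL 1 and the highest were IsoL 3 and 2 (edgeR adjusted p = 0.853). Psmd2, the scaffold subunit with the highest CPM of all members, was at 224, 184, 201 and 209 CPM in Model and 202, 220.3, 217 and 216 CPM in IsoL. The 4 IsoL libraries lay between the lowest and the highest Model library (edgeR adjusted p = 0.676). Psmd1, the other large scaffold subunit, was at 151, 101, 136 and 147 CPM in Model and 132, 147, 146 and 143 CPM in IsoL. Model 2 was far below the other 7 libraries, and the interval was wide for that abundance, 0.894 to 1.26 in fold (edgeR adjusted p = 0.777). The lid subunits Psmd13 and Psmd6 had the highest positive log2 fold changes of the class, 0.10 (SE 0.059) and 0.09 (SE 0.059), and neither passed (edgeR adjusted p = 0.506 and 0.541).

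Psmd5, Psmd9 and Psmd10 guide the assembly of the ATPase ring and are not part of the finished particle. All 3 had a log2 fold change below 0, and 0 passed. Psmd10, also known as gankyrin, was at 19.9, 18.96, 17.4 and 16.3 CPM in Model and 16.2, 17.4, 15.2 and 16.3 CPM in IsoL, and the groups overlapped, since IsoL 2 and 4 exceeded Model 4 (log2 -0.15, SE 0.087, edgeR adjusted p = 0.476). Psmd9 was at 16.2, 22.3, 20.5 and 18.2 CPM in Model and 17.5, 19.1, 19.8 and 18.5 CPM in IsoL; the Model group held both the lowest and the highest library (edgeR adjusted p = 0.887). The estimate for Psmd5 was -0.09 (SE 0.057, edgeR adjusted p = 0.507).

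The activators open the barrel without ATP. Of 5 genes, 4 had a log2 fold change below 0 and 1 above. Psme1 and Psme2 encode the subunits of the interferon-inducible activator. Psme1 was at 26.9, 25.7, 26.0 and 28.1 CPM in Model and 21.7, 26.1, 25.0 and 25.9 CPM in IsoL, with IsoL 1 low (log2 -0.11, SE 0.077, edgeR adjusted p = 0.572). Psme2 had a similar estimate (-0.10, SE 0.079, edgeR adjusted p = 0.615). Its copy Psme2b was read at 3.38 to 4.76 CPM; 59.3% of the 50-base windows of the Psme2 transcript also occur in the Psme2b transcript, so the split of reads between them is uncertain.

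Psme3, the nuclear activator, was the most abundant of the class at 118, 115, 112 and 118 CPM in Model and 114, 110.2, 112 and 107 CPM in IsoL. The lowest library was IsoL 4, the groups overlapped, and the estimate was -0.06 in log2 units with an SE of 0.045 (edgeR adjusted p = 0.586). Psme3ip1, whose product binds that of Psme3, had a log2 fold change of -0.11 (SE 0.07), with IsoL 4 at 35.8 CPM and the other 7 libraries at 42.6 to 45.7 CPM. Psme4, the large single-chain activator, was the one activator above 0, at 82.0, 76.6, 85.4 and 83.1 CPM in Model and 91.8, 79.4, 77.6 and 87.8 CPM in IsoL (edgeR adjusted p = 0.806). IsoL 1 and 4 were above every Model library, and IsoL 2 and 3 were inside the Model range.

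Psmc3ip (ENSMUSG00000019303, chromosome 11, 100982649 to 100986262, minus strand) is no subunit but a cofactor of meiotic recombination, and it behaved unlike every other tested member in its spread. It had 94, 19, 29 and 53 counts in Model 1 to 4 and 144, 98, 25 and 84 counts in IsoL 1 to 4, or 6.57, 1.19, 2.02 and 3.60 CPM and 8.84, 5.68, 1.58 and 3.85 CPM. Both groups ran from low to high and overlapped almost fully (log2 0.58, SE 0.65, edgeR adjusted p = 0.748). The highest library was 7.44-fold the lowest, and the coefficient of variation within groups was 66.4%, against 13.5% for Psme2b, the next most variable tested member. Without IsoL 1 the log2 fold change was 0.17, and without Model 1 it was 1.14. Its neighbours were steady: Mlx, which overlaps it on the opposite strand and holds 27.1% of its transcript's 50-base windows, ran from 21.8 to 25.6 CPM, and Retreg3 from 66.2 to 72.9 CPM. No strand marking is stated for these libraries, so reads of the overlap with Mlx cannot be told apart.

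The library sums showed the same overlap for core and regulatory genes. Core genes summed to 919, 888, 859 and 887 CPM in Model 1 to 4 and to 824, 904, 887 and 872 CPM in IsoL 1 to 4, with means of 888 ± 24.7 and 872 ± 34.5 CPM (SD, n = 4). Regulatory genes summed to 2285, 2124, 2127 and 2194 CPM in Model and to 2120.0, 2228, 2214 and 2149 CPM in IsoL, with means of 2182 ± 75.9 and 2178 ± 51.4 CPM. IsoL 1 was the lowest and Model 1 the highest library in both sums. All members together took 0.293 to 0.315% of the counts of a library.

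The balance of core to regulatory mRNA over all members differed between the groups by less than the spread between libraries. The log2 ratio of summed core to summed regulatory counts was -1.31, -1.26, -1.31 and -1.31 in Model 1 to 4 and -1.36, -1.30, -1.32 and -1.30 in IsoL 1 to 4. Model 2 was the highest and IsoL 1 the lowest, and the other 6 libraries lay within -1.32 to -1.30. The means differed by -0.02 (IsoL minus Model), with a pooled SD of 0.0277. Without Model 2 the difference was -0.012, and without IsoL 1 it was -0.011. For the 31 genes of the finished particle alone, the ratio of core to regulatory counts was -1.06, -0.98, -1.04 and -1.04 in Model and -1.09, -1.05, -1.07 and -1.05 in IsoL. That difference, -0.035, was larger than its pooled SD of 0.0272, and the groups still overlapped, with Model 2 again the highest. Gene by gene, the median log2 fold change was -0.03 over 15 tested core genes and -0.02 over 27 regulatory genes, with ranges of -0.17 (Psmb5) to 0.10 (Psmb2) and of -0.15 (Psmd10) to 0.58 (Psmc3ip).

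**Figure D3:**
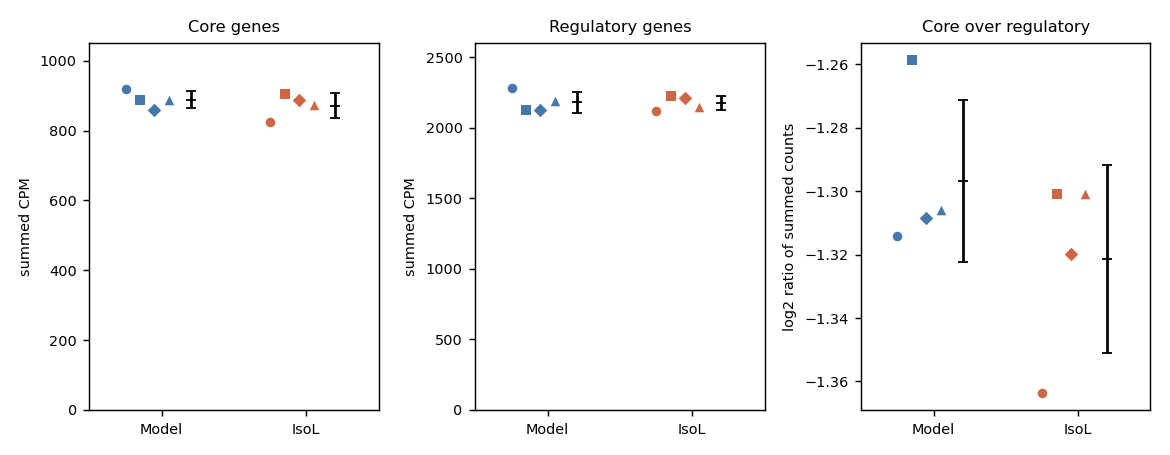
Summed CPM of the 17 core genes (left), summed CPM of the 27 regulatory genes (middle) and the log2 ratio of their summed counts (right) are shown for each library (points, with a shape for each replicate number as in the plot by library) beside the group mean with its SD (bars, n = 4). The groups overlap in each panel; Model 2, at -1.26, and IsoL 1, at -1.36, are the extremes of the ratio.

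Single libraries were extreme for many subunit genes at once, and the same counts were not made over all tested genes. Among the 31 genes of the finished core and regulatory particle (14 core, 17 regulatory), IsoL 1 was the lowest of its group for 24 and the lowest of all 8 libraries for 11. IsoL 1 was also the library with the highest choroid plexus marker sum and the lowest hypothalamic marker sum; the part of tissue mix in its subunit values was not tested. IsoL 2, whose choroid plexus sum of 577 CPM was close to that of IsoL 1, was the highest of its group for 15 of the 31 genes and the lowest for 1. Model 1 was the highest of its group for 15 of the 31. Model 2 was split, highest of its group for 10 genes, Psmb5 among them, and lowest for 12, Psmd1 among them. Over the whole table, too, Model 2 stood furthest from its group. Its chi-square per degree of freedom against the other Model libraries was 10.9 to 12.4, beside 2.52 to 7.48 among those. Model 3 was the highest for 0 of the 31. Leaving out Model 2 brought the log2 fold change of Psmc2 to 0.0082, of Psmd2 to 0.018, of Psmc1 to -0.044, of Psmb5 to -0.11 and of Psme2b to -0.0061. Leaving out IsoL 1 brought that of Psma7 to -0.044, of Psme1 to -0.052 and of Psme4 to 0.00032.

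Levels per length were compared over all 8 libraries on the FPKM scale (reads scaled to gene length and library size). In the finished particle they ran from 9.58 FPKM (Psmb5) to 116 FPKM (Psmc5), a 12.2-fold range. These levels depend on the length used. The gene length in the table was up to 3.36 times that of the principal transcript in GENCODE M21 (for Psma7), and with the transcript length the core genes other than Psmb5 spanned 24.4 (Psma3) to 77.1 FPKM (Psmb4), or 3.16-fold in place of 4.60-fold. The 17 regulatory genes of the finished particle spanned 25.5 (Psmd11) to 123 FPKM (Psmc5), or 4.84-fold in place of 10.2-fold. The medians with the transcript length were 54.0 FPKM for the 14 core genes and 49.6 FPKM for the 17 regulatory genes.

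Psmb5 had the lowest level of the finished particle under either length, at 9.58 FPKM. With the table length the next gene was close, Psmd11 at 11.4 FPKM, whereas with the transcript length the next was Psma3 at 24.4 FPKM, and its catalytic partners Psmb6 and Psmb7 were at 73.2 and 40.4 FPKM. It was also the gene of the finished particle whose transcript shares most sequence with other genes: 57.1% of its 50-base windows occur elsewhere in the annotation, 49.4% in the processed pseudogene Gm3375. The part of such shared sequence in its level was not tested. Psmb3 and Psma5, with 55.8% and 55.4% of windows shared, were at 53.9 and 34.5 FPKM. Of the 31 genes, 15 share 0 windows with another gene. Outside the finished particle, Psmd9 had the lowest Psmd level (2.62 FPKM with the table length) and Psme3 the highest activator level (38.3 FPKM), while Psma8 and Psmb11 were at 0.204 and 0.0158 FPKM.

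**Figure D4:**
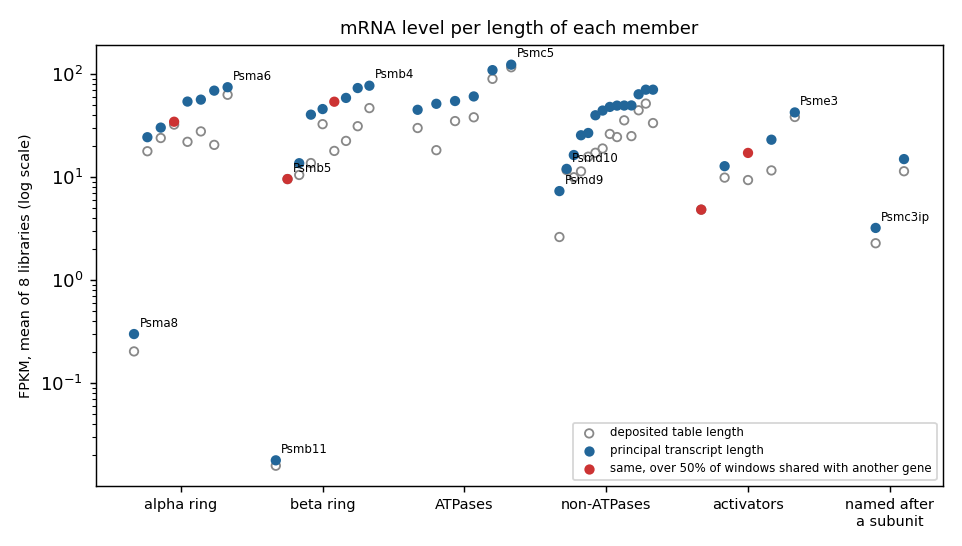
Mean FPKM over the 8 libraries (log axis) is plotted for each of the 44 genes by class, with the gene length of the deposited table (open circles) and with the principal transcript length (filled circles); red marks genes with over 50% of 50-base windows shared with another gene. All genes of the finished particle but Psmb5 lie within 24.4 to 123 FPKM with the transcript length, Psmb5 lies under them, and Psma8 and Psmb11 lie far below.

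Genes around the proteasome showed no called difference either. Of 5 assembly chaperones tested (Psmg and Pomp), 3 were below and 2 above 0 in log2 fold change. The 2 with the smallest p were Psmg2 (log2 0.15, SE 0.11, edgeR adjusted p = 0.591) and Psmg4 (-0.10, SE 0.22, edgeR adjusted p = 0.881). Of 13 proteins that bind the proteasome, 9 were below and 4 above 0. Among them was Ubqln2, a shuttle that brings ubiquitinated proteins to the particle, at 257, 264, 249.7 and 264 CPM in Model and 235, 242, 239 and 239.6 CPM in IsoL. Its groups did not overlap, a pattern found in 8.48% of all tested genes, and it did not pass (log2 -0.11, SE 0.041, edgeR unadjusted p = 0.0147 and adjusted p = 0.259).

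Subunits that the naming rule leaves out gave similar values. The ubiquitin receptor Adrm1 had means of 46.0 ± 4.02 CPM in Model and 46.5 ± 2.29 CPM in IsoL (SD, n = 4), and 78.0% of its transcript's windows are shared with Gm9774. The small subunit Sem1 had means of 22.5 ± 2.60 and 20.1 ± 1.59 CPM (log2 -0.16, SE 0.094, edgeR adjusted p = 0.482; -0.085 without Model 2). Of 6 genes for ubiquitin and its activating enzymes, 4 were below and 2 above 0; Rps27a, which encodes ubiquitin fused to a ribosomal protein, had a log2 fold change of -0.12 (edgeR adjusted p = 0.563; -0.019 without Model 2) and shares 72.0% of its windows with other genes. Uba1, the main activating enzyme, had one of 0.09 (edgeR adjusted p = 0.748), with Model 2 at 242 CPM and the other Model libraries at 339 to 355 CPM.

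Promoters were searched for the binding motifs of factors known to act on proteasome genes. Nfe2l1, the factor that raises subunit transcription when proteasome activity falls, was at 383 ± 7.76 CPM in Model and 381 ± 6.26 CPM in IsoL (SD, n = 4; edgeR adjusted p = 0.959). Of the 9 genes listed for this control, 5 were below and 4 above 0, and 0 passed; the smallest p were those of Mafg, a small partner of Nfe2l1 (log2 -0.08, edgeR adjusted p = 0.507), and Ngly1, which deglycosylates it (log2 0.09, edgeR adjusted p = 0.552). RefSeq promoter windows of the GRCm38.p6 build, from 250 bases before to 50 after a gene's start, were at hand for 37 of the 44 genes (41 windows). The antioxidant response element TGACNNNGC, searched on both strands, occurred in 6 of the 41 windows (14.6%) and in 12.4% of all 32851 windows. The share of CCAAT was 36.6% against 37.4%, and that of the heat shock element GAANNTTC was 2.44% (Psmb5 alone) against 7.86%; the matches of different motifs overlapped in 0 member windows. A match describes letters in the window and is not a shown binding site. Of 8 listed heat shock genes, 7 had a log2 fold change below 0 and 1 above. Of these, 2 passed the test, both lower in IsoL, and a tie to the subunit genes was not tested.

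The 6 windows with the antioxidant response element are given because this motif is the one tied to Nfe2l1. Each runs 5′ to 3′ on the gene's strand, with the match in capitals; those of Psmc6, Psmd12 and Psme4 match on the opposite strand.
Psmb5 (chr14:54618018-54618058, gene on the minus strand): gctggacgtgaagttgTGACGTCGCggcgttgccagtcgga
Psmb6 (chr11:70525332-70525372, gene on the plus strand): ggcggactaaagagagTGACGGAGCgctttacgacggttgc
Psmd9 (chr5:123228143-123228183, gene on the plus strand): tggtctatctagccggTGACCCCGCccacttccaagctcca
Psme4 (chr11:30771752-30771792, gene on the plus strand): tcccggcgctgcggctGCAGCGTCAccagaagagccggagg
Psmc6 (chr14:45329581-45329621, gene on the plus strand): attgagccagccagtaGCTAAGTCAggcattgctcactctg
Psmd12 (chr11:107479278-107479305, gene on the plus strand): tctGCTGTGTCAcatttgcccccctcag
The match starts 47 bases before the start of Psmb5, 9 before that of Psmb6, 31 before that of Psmd9 and 7 before that of Psme4, and 227 and 247 bases before those of Psmc6 and Psmd12. The 6 genes had log2 fold changes of -0.17 (Psmb5), 0.02 (Psmb6), -0.04 (Psmd9), 0.04 (Psme4), -0.03 (Psmc6) and -0.06 (Psmd12), and 0 of them passed the test.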

How the data were processed

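Polyadenylated RNA of 8 libraries was sequenced. Read counts per gene are deposited for each library, per the file headers; fastp 0.22.0, HISAT2 2.1.0 and HTSeq 0.9.1 are named in the submitters' processing notes. No source used here gives the genome build or annotation. FPKM values and the gene length they use (the table's other unit) were deposited by the authors too and served for levels only.

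Genes were filtered with filterByExpr, scaled with TMM (factors 0.983 to 1.01) and tested over the whole table with edgeR 4.0.16 (R 4.3.3), quasi-likelihood F-test, group as the only term, Benjamini-Hochberg threshold 0.05. The common biological coefficient of variation was 9.06%. The SE is the absolute log2 fold change over the square root of F. Replicate pairs within a group differed beyond counting noise (chi-square per degree of freedom 2.52 or more), so all 8 libraries were kept. The test was checked on counts simulated from the real means and library sizes. Variance followed the trend over expression level rather than each gene's own, and no library was made to stand apart as Model 2 did. Only genes above a set level were changed, and Psmc3ip and Psme2b lie under that level. It recovered 0 of 50 genes changed 1.1-fold, 15 of 50 changed 1.2-fold, 44 of 50 changed 1.5-fold and 50 of 50 changed 2-fold. There were 4 false calls. The 0 calls among members alone therefore do not show that differences of 1.2-fold or less were absent.

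The members, gene lists and motifs were chosen with earlier results of these data known. Named were, per class, the 2 members with the smallest p and those with the highest and lowest FPKM, a fixed set including Psmb5 to Psmb7, Psmb10, Psmd4, Psmd14, Psme3 and Psme4, and per related list the 2 smallest p (36 genes); other genes were named after their values were seen. Alternatives were DESeq2 size factors, no filter, a replicate block, each library left out, DESeq2 1.42.0, limma 3.58.1 voom and a threshold of 0.10. Transcript lengths as an alternative for levels were added after seeing the data. Shared sequence was counted as exact 50-base windows, either strand, between a gene's principal GENCODE M21 transcript and transcripts of other genes.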

Additional observations from a re-analysis of the deposited data

Results flagged for a closer look

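Of 140 group values checked for a library standing apart from the other 3 of its group, 8 met the criterion (Dixon's gap over range), and chance alone gives about 1 in 20. In Model, Model 1 was high for Psmd14 (80.1 CPM, others 72.1 to 73.2), Model 2 was low for Psmd3 (78.0 CPM, others 85.9 to 86.8) and for Uba1 (242 CPM, others 339 to 355), and Model 3 was high for Psmb9 (1.18 CPM, others 0.747 to 0.769). The log2 ratio of core to regulatory counts was high in Model 2, at -1.26, with the others at -1.31. In IsoL, IsoL 1 was low for Sem1 (17.7 CPM, others 20.6 to 21.2), IsoL 2 was high for Adrm1 (49.9 CPM, others 45.0 to 45.6) and IsoL 3 was high for Psmd12 (98.5 CPM, others 89.8 to 91.2).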

How the results depend on the processing

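The count of core and of regulatory genes called was 0 under every alternative run: DESeq2 size factors, no filter, the replicate block, a threshold of 0.10, DESeq2, limma voom and each library left out in turn. The smallest adjusted p of any member ranged from 0.273 (limma voom, Psma1) to 0.558 (without IsoL 1, Psmd6). The count over all genes, 40, was 138 at a threshold of 0.10, 74 without the filter, 17 with the replicate block, 311 in DESeq2, 175 in limma voom, and 6 (without Model 4 or IsoL 2) to 146 (without Model 2) with a library left out; the cause was not tested. Same-numbered libraries were hardly correlated (0.0208 to 0.0728), so the numbers are not taken to pair them, and the replicate block changed no call of a member.

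The core median log2 fold change ran from -0.049 to -0.0031 and the regulatory one from -0.028 to 0.020 with a library left out (0.0022 in limma voom), each less than 1 SD between libraries (0.0409 and 0.0377) from its value as reported. The difference in core to regulatory log2 ratio ran from -0.032 to -0.011 with a library left out, and was -0.0055 from summed FPKM, -0.037 from gene-centred values and -0.035 for the finished particle (pooled SD 0.0272). Of 442 single-gene values under an alternative, 31, from 10 genes, changed sign, and none passed the test. Psmc5 became 0.0021 with DESeq2 size factors, 0.0014 without the filter, 0.0011 with the replicate block, 0.0019 in DESeq2 and 0.044 in limma voom. In limma voom Adrm1 became -0.0037, Psmd9 0.016 and Psmg4 0.010. With a library left out, ranges across 0 were -0.030 to 0.053 (Adrm1), -0.032 to 0.050 (Psma6), -0.033 to 0.026 (Psmb4), -0.025 to 0.065 (Psmb6), -0.17 to 0.44 (Psmb8), -0.024 to 0.028 (Psmc5), -0.037 to 0.017 (Psmd14), -0.12 to 0.036 (Psmd9), -0.22 to 0.11 (Psmg4) and -0.019 to 0.15 (Uba1). Counts limit Psma8, Psmb11, Psmb8 and Psmb9, which had 0 to 49 counts per library.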
